A study of Bos taurus with 24 samples.

Results

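The genes that took the largest part of the reads in the adrenal gland of young calves were described, 96 Ensembl gene IDs out of 27570 in the count tables. Values are CPM, the count of an ID divided by all counts of its library and multiplied by 1000000. The 100 IDs with the highest mean CPM over 24 libraries were taken. From these, 4 IDs were dropped because their CPM at birth and at weaning did not overlap, and all 4 were lower at weaning. The remaining 96 IDs are called the members.

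Adrenal tissue came from 24 female calves in 4 groups of 6. They were calves cooled in utero (IUCL) or heat stressed in utero (IUHS), sampled at birth (day 0) or at weaning (day 63). There was no group without a treatment before birth, so every difference between treatments is heat stress against cooling. The series gives 6 calves per treatment and age, with 1 library each, and the labels name the tissue as adrenal gland without giving a layer.

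The adrenal cortex makes glucocorticoids, mineralocorticoids and androgens from cholesterol, and the medulla makes catecholamines. Both parts are held in a stroma of blood vessels and connective tissue. In most tissues the genes with the most reads include those for the mitochondrial genome, ribosomal proteins, the cytoskeleton and the products particular to the organ. No gene names stand beside the IDs in the count tables, and the reference table of 37063 bovine genes gave a name for 0 of the 96 members. Members are therefore given by ID, and which of these classes they belong to was not analysed here. The labelled tissue was for the same reason not checked against marker genes. In bulk tissue, fewer cells of a type and less RNA per cell cannot be told apart.

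Libraries held between 12261651 and 19012206 counts. The smallest count of any member in any library was 2251, so counting error was small. The coefficient of variation that counting alone gives had a median of 0.798% over the members and ranged from 0.265% to 1.17%. The coefficient of variation between calves of a group had a median of 17.1% and ranged from 6.94% to 71.3%. Of all IDs, 22828 had a count in any library and 15693 passed the filter on low counts, all 96 members among them. Libraries of calves 4 and 5 of the IUHS birth group and of calf 3 of the IUCL birth group stood apart in the members' levels. They were picked after the values were seen and not by a fixed rule. The main values that rest on them are also given without them. Other libraries were extreme in other values, such as IUHS calf 28 at weaning, in which the members took 21.5% of counts.

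The members were chosen by their mean CPM and by the overlap of their CPM between ages, so both are described without a test. The member with the lowest mean, ENSBTAG00000016168, had 801.6 CPM, and the first ID outside, ENSBTAG00000001553, had 800.5 CPM. At the limit of overlap, the member ENSBTAG00000000778 spanned 1806 to 2303 CPM at birth and 1480 to 1919 CPM at weaning. The dropped ID with the smallest gap, ENSBTAG00000003362, spanned 1016 to 1797 CPM at birth and 687 to 981 CPM at weaning. The limit on the mean therefore cut between IDs with nearly equal values. At the limit of overlap the CPM levels differed, and the overlap on the log2 scale was 0.09 for the member and -0.05 (a gap) for the dropped ID.

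The members took about the same part of all reads in every calf. Their share of counts was 18.6% ± 1.12 (SD, n = 24) and ranged from 16.7% to 21.5%. At birth the share was lowest at 17.7%, had a median of 19.4% and was highest at 19.7% in IUCL calves, and was 16.7%, 18.6% and 19.3% in IUHS calves. At weaning the lowest, median and highest shares were 17.8%, 18.3% and 20.3% in IUCL calves and 17.2%, 18.9% and 21.5% in IUHS calves. All 4 groups overlapped. The mean ± SD was 18.95% ± 0.875, 18.2% ± 1.08, 18.6% ± 0.940 and 18.9% ± 1.58 in that order (n = 6 each).

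Within this share the reads were spread over many IDs. The member with the highest mean took 1.30% of all counts, the first 5 members together 4.62%, the first 10 members 7.29%, the first 20 members 10.02% and the first 50 members 14.4%. In single libraries the share of that first member, ENSBTAG00000009836, lay between 0.311% and 2.52%.

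**Figure D1:**
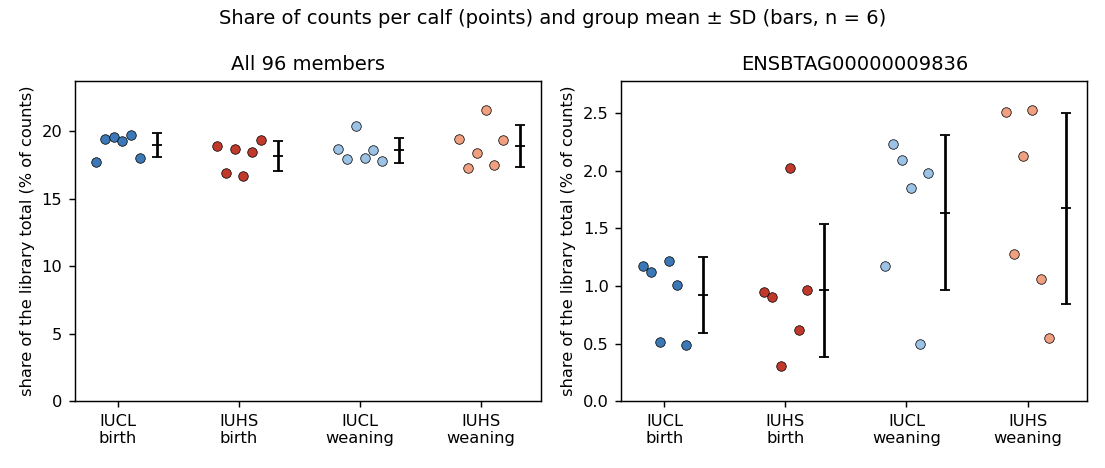
Share of all counts in each library (percent, vertical axes start at 0), 1 point per calf in the 4 groups with the group mean ± SD as bars (n = 6), for all 96 members (left) and for ENSBTAG00000009836 alone (right). The share of all members lies between 16.7% and 21.5% with all groups overlapping, while the single ID runs from 0.311% to 2.52%.

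The order of the members differed from calf to calf. Of the 96 members, 43 were among the 100 IDs with the most counts in every library and 53 were outside in at least 1 library. Each library had between 69 and 87 members (median 81) in its own top 100. There were 6 IDs that ranked first in at least 1 library. ENSBTAG00000009836 was first in 13 libraries, ENSBTAG00000053735 in 6, ENSBTAG00000006769 in 2, and ENSBTAG00000047039, ENSBTAG00000014269 and ENSBTAG00000054126 in 1 each. The lowest rank of any member was 1567, for ENSBTAG00000021588. Counts were not divided by gene length, so these ranks give the part of the reads taken and not the number of transcripts.

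ENSBTAG00000009836 had the highest mean, 12982 CPM. At birth its lowest, median and highest values were 4879, 10651 and 12140.4 CPM in IUCL calves and 3106, 9258 and 20237 CPM in IUHS calves. At weaning they were 4970, 19153 and 22285 CPM in IUCL calves and 5492, 17031 and 25242 CPM in IUHS calves. Each group thus held calves with low and calves with high values. The groups overlapped, although the medians at weaning were above those at birth. From the lowest to the highest library the ID varied 8.13-fold.

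ENSBTAG00000053735, with a mean of 10287 CPM, varied less. Its lowest, median and highest values at birth were 8235, 12222 and 17204 CPM for IUCL and 6936, 9230 and 17976 CPM for IUHS calves. At weaning they were 7398, 8872 and 12884 CPM for IUCL and 5666, 7624 and 11852 CPM for IUHS calves. The medians were lower at weaning in both treatments and all groups overlapped.

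ENSBTAG00000054126 had a mean of 8703 CPM. Its lowest, median and highest values at birth were 6583, 8554 and 12063 CPM for IUCL and 4956, 6464 and 14124 CPM for IUHS calves. At weaning they were 6057, 7625 and 10851 CPM for IUCL and 7919, 9853 and 11523 CPM for IUHS calves. The IUHS median was thus below the IUCL median at birth and above it at weaning, with overlapping groups at both ages.

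ENSBTAG00000006769, with a mean of 8017 CPM, was the member of the first 4 with the narrowest group. The 6 IUHS calves at birth lay between 5408 and 6551 CPM with a median of 6168 CPM, a coefficient of variation of 6.39%. IUCL calves at birth had 5124, 5993 and 9697 CPM as lowest, median and highest values. At weaning these were 6135, 9159 and 14094 CPM for IUCL and 7718, 9616 and 11772 CPM for IUHS calves. All 6 IUHS calves at weaning were above all 6 IUHS calves at birth, whereas the IUCL groups overlapped.

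The next 6 members had means between 4323 and 6261 CPM. They were ENSBTAG00000047039 with 6261 CPM, ENSBTAG00000014534 with 5807 CPM, ENSBTAG00000014269 with 5757 CPM, ENSBTAG00000033345 with 5740 CPM, ENSBTAG00000006934 with 4988 CPM and ENSBTAG00000010899 with 4323 CPM. The means of neighbours in this order differed by less than the spread between calves. ENSBTAG00000014534 was the steadiest of these. Its group medians were 6243 CPM for IUCL and 5307 CPM for IUHS calves at birth, and 5391 CPM for IUCL and 5757 CPM for IUHS calves at weaning, and all 24 libraries lay between 4691 and 7651 CPM. ENSBTAG00000006934 had values from 5053 to 6554 CPM in IUCL calves at birth. In IUHS calves at birth, 5 calves lay between 5694 and 6295 CPM and calf 5 had 3432 CPM.

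**Figure D2:**
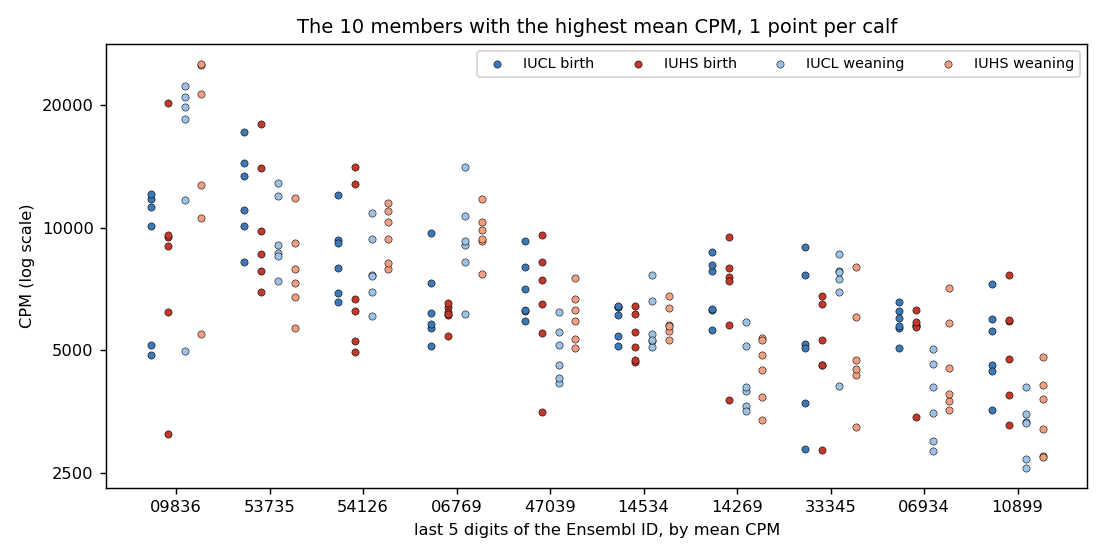
CPM (log axis) of the 10 members with the highest mean, 1 point per calf, coloured by group, with IDs shortened to their last 5 digits on the horizontal axis. The groups of ENSBTAG00000009836 run from 3106 to 25242 CPM, whereas ENSBTAG00000014534 stays between 4691 and 7651 CPM.

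How stable the members were between calves was measured as the SD of log2 CPM around the 4 group means, after TMM scaling (factors that align the bulk of the genes between libraries). The median SD over the members was 0.28 with a range from 0.10 to 1.005, against a median of 0.34 over all 15693 IDs tested and 0.25 over the next 900 IDs by mean CPM. On total counts without TMM the 3 medians were 0.24, 0.36 and 0.23. The members thus varied less than the typical ID tested and slightly more than the abundant IDs ranked below them. Of the members, 66 had an SD below the median over all IDs tested and 30 above it. Among the 25% of IDs tested with the lowest SD were 27 members, and among the 25% with the highest SD were 10. The CPM of 44 members stayed within 2-fold over all 24 libraries, that of 14 members varied more than 4-fold, and that of 4 members more than 10-fold. Without the 3 libraries that stood apart these numbers were 49, 10 and 0, and the median SD was 0.25 over members and 0.32 over all IDs tested.

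The steadiest member was ENSBTAG00000004258, with an SD of 0.10. Its 24 values lay between 2263 and 3082 CPM, a 1.36-fold range. The lowest, median and highest values at birth were 2454, 2774 and 3002 CPM for IUCL and 2554, 2819 and 3082 CPM for IUHS calves. At weaning they were 2263, 2361 and 2695 CPM for IUCL and 2264, 2416 and 2658 CPM for IUHS calves. Treatments lay on top of each other at each age, and both weaning medians were below both birth medians. ENSBTAG00000020308 followed with an SD of 0.15 and a range from 822 to 1385 CPM, and ENSBTAG00000000778 with an SD of 0.16.

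At the other end, 3 members had an SD near 1. ENSBTAG00000011839 ranged 20.7-fold, from 228 to 4719 CPM, with an SD of 1.005. Its lowest value came from IUHS calf 5 at birth and its highest from IUCL calf 3 at birth, while the 12 weaning calves lay between 545 and 1337 CPM. ENSBTAG00000021588 ranged 18.97-fold, from 133 to 2526 CPM, with an SD of 1.004. In its case IUCL calf 3 at birth was the lowest and the 12 weaning calves lay between 298 and 923 CPM. ENSBTAG00000012314 ranged 19.7-fold, from 179 to 3519 CPM, with an SD of 0.93, and again IUHS calf 5 was lowest and IUCL calf 3 highest at birth. For these 3 members the extremes all came from newborn calves, most of them from the libraries that stood apart. Without the 3 libraries ENSBTAG00000011839 ranged 5.46-fold (387 to 2113 CPM) with an SD of 0.71, ENSBTAG00000021588 8.46-fold (298 to 2526 CPM) with an SD of 0.67, and ENSBTAG00000012314 8.98-fold (202 to 1811 CPM) with an SD of 0.66.

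**Figure D3:**
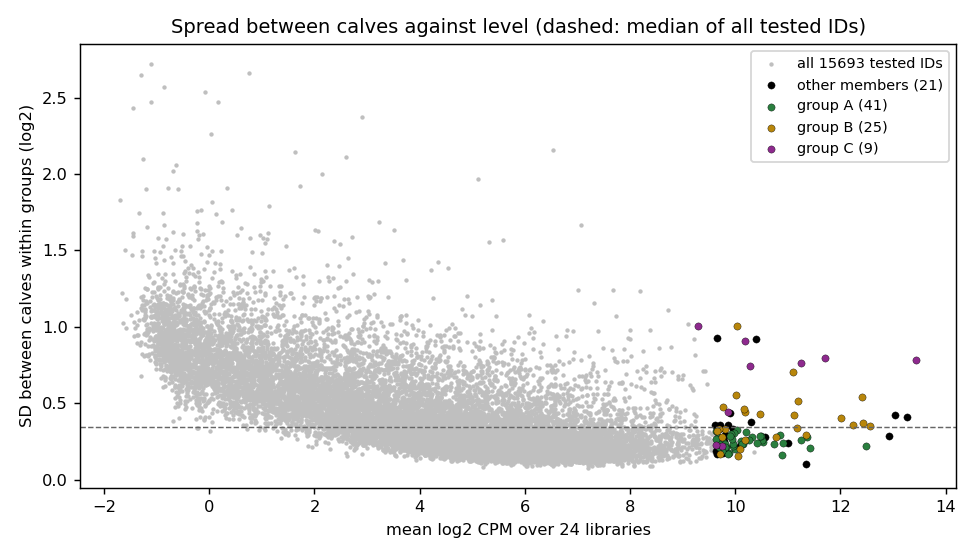
SD of log2 CPM between calves of a group (vertical axis) against mean log2 CPM over 24 libraries (horizontal axis) for the 96 members, coloured by the groups of members that varied together, over all IDs tested. Most members lie near the median over members of 0.28, and 6 of the 10 members with an SD above 0.6 belong to group C.

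The spread differed between groups of calves. The median SD over members was 0.22 for IUCL and 0.33 for IUHS calves at birth, and 0.26 for IUCL and 0.28 for IUHS calves at weaning. Over all IDs tested these medians were 0.32, 0.35, 0.30 and 0.33. At birth 75 of 96 members had a larger SD in IUHS than in IUCL calves, against 56.2% of all IDs tested, and at weaning 58 members did, against 56.3%. The number at birth moved with 2 libraries, and so did the share over all IDs. Without IUHS calf 4 it was 58 members against 49.6% of all IDs tested, and without IUHS calf 5 it was 58 members against 49.2%. Without both it was 42 members against 40.9%, with a median SD over members of 0.22 in the 4 calves left. Without calf 4 alone the median SD was 0.25. The difference in spread was not tested.

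The variation of each member was split into parts for age, treatment, their interaction and calves within groups. Calves within groups held a median of 82.2% of a member's variance, against 81.4% over all IDs tested. Age held 11.5% against 8.68%, treatment 1.15% against 1.88%, and the interaction 1.92% against 1.87%. In 90 members more than 50% of the variance lay between calves of a group, against 91.3% of all IDs tested. Age held over 50% in 5 members, against 5.68% of all IDs tested, although the rule had removed the 4 IDs that age separated fully. The largest part that treatment held in any member was 13.6%, in ENSBTAG00000020308.

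Heat stress before birth against cooling was tested for every ID in 1 fit over all 24 libraries with edgeR's quasi-likelihood test, with p-values adjusted by Benjamini-Hochberg over 15693 IDs and a threshold of 0.05. Treatment played no part in choosing the members. At birth 0 of 96 members passed (0% of all IDs tested), and at an unadjusted p under 0.05 there was 1 member, against 3.93% of all IDs tested. At weaning 0 members passed (0%), with 0 at an unadjusted p under 0.05, against 6.99%. Averaged over both ages 0 members passed (0%), with 0 unadjusted, against 4.61%. The interaction, which asks whether the treatment difference itself differed between ages, passed in 0 members (0%), with 0 unadjusted, against 5.56%. DESeq2 and limma-voom also called 0 members in each of these comparisons. At an unadjusted p under 0.05, DESeq2 had 1, 0, 1 and 0 members and limma-voom had 1, 0, 0 and 0 in that order. Over all 15693 IDs tested, DESeq2 had 723, 1190, 842 and 966 and limma-voom had 632, 1030, 653 and 800.

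For most members the data set a bound on how large a treatment difference could be. The median absolute log2 difference over members was 0.08 at birth and 0.11 at weaning, against 0.12 and 0.15 over all IDs tested. The 95% interval of the difference lay within 2-fold in both directions for 89 of 96 members at birth, against 76.5% of all IDs tested. At weaning it did so for 91 members, against 77.1%, and averaged over ages for 95 members, against 88.9%. Within 1.5-fold lay the intervals of 72 members at birth (53.5% of all IDs tested), 69 at weaning (49.7%) and 85 averaged over ages (68.4%). The interaction was less sharply bounded, with 79 intervals within 2-fold (61.2%) and 44 within 1.5-fold (29.7%).

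**Figure D4:**
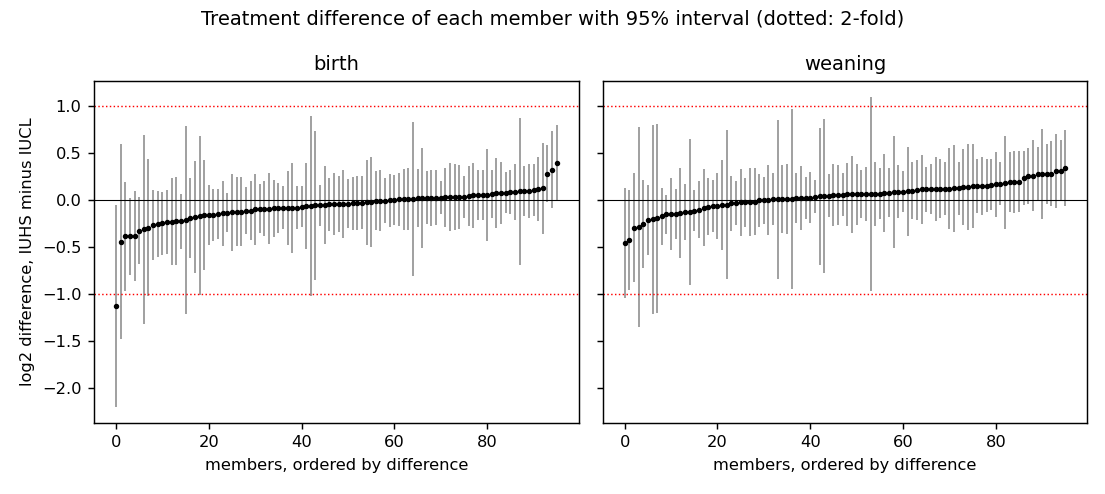
IUHS minus IUCL difference in log2 CPM with its 95% interval for each of the 96 members at birth and at weaning (6 calves against 6), from the edgeR fit. At birth 89 intervals and at weaning 91 intervals lie within 2-fold in both directions, and 0 members passed the threshold at either age.

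The member with the smallest p at birth was ENSBTAG00000012314, with a log2 difference (IUHS minus IUCL) of -1.13 ± 0.52 SE (edgeR adjusted p = 0.9999). Its lowest, median and highest values were 226, 610 and 3519 CPM for IUCL and 179, 408 and 1040.1 CPM for IUHS calves. The groups overlapped, and calf 3 of the IUCL group, at 3519 CPM, stood above the other 5 IUCL calves, of which the highest had 902 CPM. Without that calf the log2 difference was -0.14.

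ENSBTAG00000014835 had the smallest p among members with higher values in IUHS calves at birth (0.39 ± 0.20 SE, edgeR adjusted p = 0.9999). Its values were 627, 867 and 1400 CPM for IUCL and 798, 1143 and 1671 CPM for IUHS calves. At weaning its medians were 627 CPM for IUCL and 759 CPM for IUHS calves, and averaged over both ages the log2 difference was 0.26 ± 0.14 SE (edgeR adjusted p = 0.944). The groups overlapped at both ages. Without IUHS calf 4 the difference at birth was 0.25.

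At weaning the smallest p with higher values in IUHS calves belonged to ENSBTAG00000013066 (0.31 ± 0.16 SE, edgeR adjusted p = 0.723). Its values were 1102, 1521 and 1614 CPM for IUCL and 1448, 1688 and 2513 CPM for IUHS calves, and the highest came from IUHS calf 18, with the other 5 between 1448 and 1779 CPM. Without that calf the log2 difference was 0.19. With lower values in IUHS calves the smallest p belonged to ENSBTAG00000007662 (-0.42 ± 0.26 SE, edgeR adjusted p = 0.785). Neither passed the threshold.

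ENSBTAG00000020308 had the smallest p among members lower in IUHS calves averaged over ages (-0.14 ± 0.07 SE, edgeR adjusted p = 0.944). Its medians were 1208 CPM (IUCL) and 1147 CPM (IUHS) in newborn calves, and 1035 CPM and 934 CPM in weaned calves. This ID was also among the 3 members with the smallest SD between calves. For the interaction the smallest p values belonged to ENSBTAG00000006934 (0.47 ± 0.28 SE, edgeR adjusted p = 0.921) and ENSBTAG00000006189 (-0.35 ± 0.21 SE, edgeR adjusted p = 0.921). For ENSBTAG00000006934 it was 0.30 without IUHS calf 31 at weaning and 0.35 without IUHS calf 5 at birth.

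Change between birth and weaning is described without a test, since members had to overlap between ages. In IUCL calves the log2 change from birth to weaning had a median over members of -0.03, with 44 members higher and 52 lower. In IUHS calves the median was 0.07, with 58 higher and 38 lower. Of the 15693 IDs tested, 8083 were higher at weaning in IUCL and 7989 in IUHS calves. Leaving out 1 library at a time, the median ran from -0.080 (without IUCL calf 13 at weaning) to 0.019 (without IUCL calf 22 at weaning) in IUCL calves. In IUHS calves it ran from -0.021 (without calf 28 at weaning) to 0.15 (without calf 4 at birth), so its sign turned with single libraries in both treatments. The counts of members past the edgeR threshold rest on values the rule used and are given as a description from which nothing is read. Past it were 14 members in IUCL calves, against 12% of all IDs tested, with 5 higher (5.58%) and 9 lower (6.37%). In IUHS calves there were 7, against 6.31%, with 4 higher (2.65%) and 3 lower (3.66%). In both treatments 4 members were past it. The share of all IDs past it in both is not given, so whether 4 is many or few cannot be told. The counts moved with single libraries, and so did those over all IDs tested. Leaving out 1 library at a time gave 8 to 17 members for IUCL and 3 to 13 for IUHS calves. The lowest counts came without calf 19 of the IUCL and calf 28 of the IUHS weaning group (1351 of 15832 and 704 of 15849 IDs tested). The highest both came without IUHS calf 5 at birth (2020 for IUCL and 1285 for IUHS, of 15811 IDs tested). The IUCL count was 9 without IUCL calf 5 (1436 of 15835 IDs) or without IUCL calf 6 at birth (1346 of 15832). The IUHS count was 4 without IUHS calf 1 at birth (678 of 15849 IDs) or without IUHS calf 31 at weaning (700 of 15848).

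ENSBTAG00000003505 had the largest log2 change with age among the members. Its lowest, median and highest values in IUCL calves were 374, 617 and 691 CPM at birth and 799.8, 1585 and 2154 CPM at weaning. In IUHS calves they were 463, 559 and 984 CPM at birth and 869.6, 1488 and 2114 CPM at weaning. In the IUCL calves the ages did not overlap, and in the IUHS calves 1 newborn reached into the weaning range. The log2 change was 1.42 ± 0.24 SE for IUCL and 1.24 ± 0.24 SE for IUHS calves. ENSBTAG00000012586 went the other way. Its medians were 2545 CPM (IUCL) and 2387 CPM (IUHS) in newborn calves and 1286 CPM and 1307 CPM in weaned calves. Its log2 changes were -0.98 ± 0.16 SE and -0.77 ± 0.16 SE. The lowest log2 changes were those of ENSBTAG00000021588, -1.28 ± 0.49 SE for IUCL and -1.18 ± 0.49 SE for IUHS calves. ENSBTAG00000006769, described above, changed by 0.54 ± 0.17 SE and 0.70 ± 0.17 SE.

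How the members varied together was read from their deviations from the group means. This removes differences in mean level between ages and treatments, but not differences in spread. Groups of calves with a larger spread, such as IUHS calves at birth (median SD 0.33), weigh more in these values. Values of 1 library share its depth and scaling, so the correlations are a description. Over 4560 pairs of members the median Pearson's r across 24 libraries was 0.34, with r of 0.5 or more in 32.7% of pairs and of -0.5 or less in 3.16%. Among the next 900 IDs by mean CPM the median was 0.16, with 19.3% and 5.68% of pairs. On total counts without TMM the median r was 0.15 for members and 0.03 for the 900 IDs. The members were therefore more alike in their deviations than the IDs ranked below them under both scalings, but the level of r depended on the scaling. The first component of the members' deviations held 44.7% of their variance, the next 17.2% and the third 8.15%, and on total counts the first held 33.9%. TMM factors ranged from 0.917 to 1.04 in the 13 libraries on the negative side of the first component and from 1.004 to 1.09 in the 11 on the positive side. The part of scaling in this component was not tested beyond these values.

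Clustering of the deviations at r = 0.5 gave 14 clusters, of which the 3 largest held 75 of the 96 members. These 3 are called groups A, B and C. On total counts there were 24 clusters, and on counts scaled to those outside the members 21. Group A had 41 members, with the highest mean CPM in ENSBTAG00000014534. Group B had 25 members, led by ENSBTAG00000047039, and group C had 9 members, led by ENSBTAG00000009836. The clusters were formed from these values and are not tested. There were 7 members alone in a cluster, among them ENSBTAG00000006769 and the steadiest member, ENSBTAG00000004258.

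**Figure D5:**
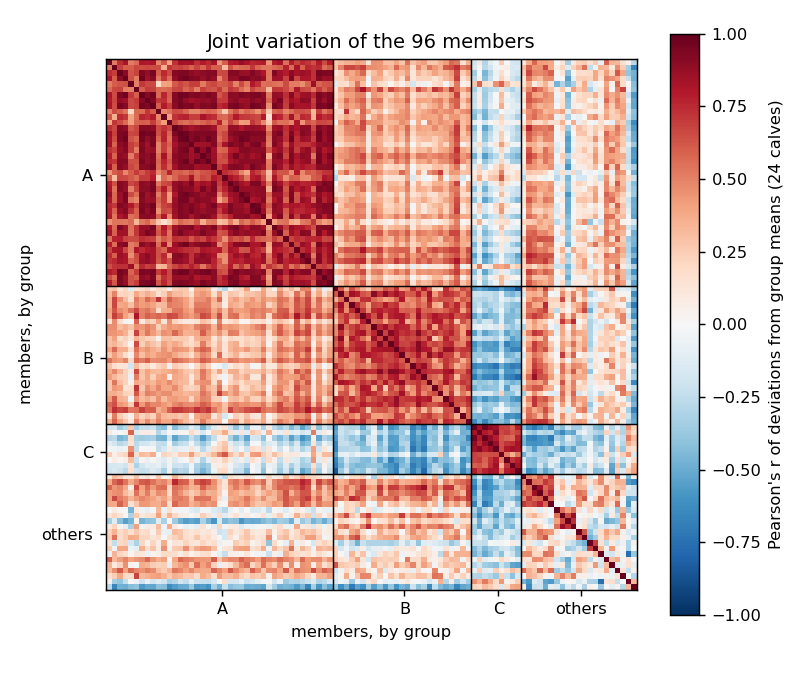
Pearson's r between the deviations of every pair of the 96 members from their group means over 24 libraries, with members ordered by groups A (41), B (25), C (9) and the other 21. Pairs within each of A, B and C are positive with medians of 0.79, 0.64 and 0.74, and pairs of B with C are mostly negative in all 24 libraries.

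Group A was the largest, and it had the smallest median SD of the 3. Its median r within the group was 0.79, and 0.68 on total counts, where that of group C was 0.77. Its median SD between calves was 0.24, and it took 5.61% of all counts on average, between 4.62% and 6.97% in single libraries. The lowest, median and highest share was 4.96%, 5.38% and 6.03% for IUCL and 4.62%, 5.39% and 6.79% for IUHS calves at birth. At weaning it was 4.89%, 5.51% and 6.49% for IUCL and 5.27%, 5.83% and 6.97% for IUHS calves. All 4 groups of calves overlapped. The pair ENSBTAG00000012044 and ENSBTAG00000002038 in group A had r = 0.97, and the ratio of their CPM stayed between 0.883 and 1.19 in all 24 libraries.

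Group B took nearly the same mean share, 5.62%, but moved more, between 3.37% and 8.66%. Its median r was 0.64 and its median SD 0.36. The lowest, median and highest share was 5.41%, 6.48% and 8.66% for IUCL and 3.37%, 6.36% and 7.49% for IUHS calves at birth. At weaning it was 4.36%, 4.84% and 5.42% for IUCL and 4.07%, 4.78% and 6.04% for IUHS calves. In IUCL calves the ages overlapped only between 5.41% and 5.42%, and in IUHS calves over a wider range. Without IUHS calves 4 and 5 and IUCL calf 3 at birth the median r within group B was 0.42.

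Group C was small and the most variable. Its 9 members were ENSBTAG00000009836, ENSBTAG00000011731, ENSBTAG00000011782, ENSBTAG00000004508, ENSBTAG00000026768, ENSBTAG00000003505, ENSBTAG00000012442, ENSBTAG00000021588 and ENSBTAG00000016168. Their median SD was 0.76, and together they took 2.61% of all counts on average, from 0.807% to 4.60%. The lowest, median and highest share was 1.002%, 2.33% and 2.81% for IUCL and 0.807%, 1.92% and 4.12% for IUHS calves at birth. At weaning it was 1.17%, 3.68% and 4.07% for IUCL and 1.26%, 3.12% and 4.60% for IUHS calves. Every group of calves thus held at least 1 calf with a low share of group C. The median r within the group was 0.74, and it was 0.72 without the 3 libraries that stood apart.

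ENSBTAG00000009836 and ENSBTAG00000011782 of group C were the closest pair of all members, with r = 0.97 on both scalings. Over the 24 libraries the first varied 8.13-fold and the other 9.16-fold, from 623 to 5707 CPM. The ratio of the first to the other stayed between 3.44 and 6.13 with a median of 4.65. A calf with little of one thus had little of the other. ENSBTAG00000021588, with the widest range in the group, belonged to the same group although its medians at weaning, 439 CPM for IUCL and 451 CPM for IUHS calves, were below those at birth, 1175 and 936 CPM.

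The groups stood in different relations to each other. Between A and B the median r was 0.38, with 1000 of 1025 pairs positive, but it depended on the scaling. On total counts it was 0.13 with 758 pairs positive, and 0.04 with 580 positive without IUHS calf 4 at birth. Between A and C it was -0.11, with 129 of 369 pairs positive, and between B and C -0.40, with 3 of 225 pairs positive. The opposite movement of B and C was most marked in 3 newborn calves, which are named for showing it. In IUHS calf 5 all 9 members of C were above and all 25 members of B below their group mean, by 0.95 and -0.94 on average on the log2 scale. In IUHS calf 4, 8 of 9 members of C were below (mean -0.88) and all 25 of B above (mean 0.44), and in IUCL calf 3 all 9 of C were below (mean -0.96) and all 25 of B above (mean 0.51). Without these 3 libraries the median r between B and C was -0.05 with 102 of 225 pairs positive (-0.15 with 71 positive on total counts). That between A and C was 0.10 (0.0007 on total counts). Without each alone the median between B and C was -0.34, -0.24 and -0.33 for IUHS calf 4, IUHS calf 5 and IUCL calf 3. In the 12 weaning libraries, which hold none of these calves, it was -0.24 with 61 of 225 pairs positive, and -0.33 with 52 positive on total counts. Among weaned calves, IUHS calf 31 had all 9 of C below (mean -0.79) and 24 of 25 of B above (mean 0.34). IUCL calf 20 had all 9 of C below (mean -0.91) and 20 of B above (mean 0.14). Other weaned calves moved both groups the same way. IUHS calf 28 had all 9 of C above (mean 0.63) and 19 of B above (mean 0.17), and IUCL calf 17 had 8 and 21 above.

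The groups were also formed in one set of calves and read in the other. The cluster led by ENSBTAG00000009836 had 9 members when formed in the 12 birth libraries, 8 of them in group C, and its median r in the 12 weaning libraries was 0.67, against 0.40 over all pairs of members. Formed at weaning it had 8 members, 7 of them in group C, and a median r of 0.64 at birth, against 0.33. Formed in IUCL calves it was the same 9 members as group C, with a median r of 0.82 in IUHS calves, against 0.38. The largest cluster formed at birth, with 34 members of which 31 were in group A, had a median r of 0.89 at weaning. In the other direction, the largest cluster formed at weaning had 49 members, which took in all 41 of group A, and a median r of 0.56 at birth, against 0.33 over all pairs. The second largest cluster formed at birth, with 29 members of which 23 were in group B, had a median r of 0.42 at weaning, close to the 0.40 over all pairs. Formed at weaning, the second largest cluster had 17 members, 11 of them in group B, and a median r of 0.64 at birth. Over the 25 members of B the median r was 0.78 in the 12 birth libraries and 0.44 in the 12 weaning libraries. On total counts the 3 largest clusters had 30, 19 and 8 members, all of them from A, B and C respectively.

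Some IDs outside the groups varied closely with them. Among the other IDs tested, r with the mean of the group was 0.8 or more for 439 of 15652 with group A, 198 of 15668 with group B and 236 of 15684 with group C. It was -0.8 or less for 248 with group A, 13 with group B and 3 with group C. These counts are given under 1 scaling only, and r among the members depended on the scaling.

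Treatment differences in the groups were small beside these movements, and 0 members of A, B or C passed the edgeR threshold. In group B 24 of 25 members had lower values in IUHS calves at birth, with a median log2 difference of -0.13, and at weaning 18 of 25 had higher values, with a median of 0.05. Members of a group were put together for moving alike, so these counts do not rest on independent members. Single calves moved the counts. Without IUHS calf 5 at birth 16 of 25 were lower with a median of -0.01, and without IUCL calf 3 at birth 17 of 25 were lower with a median of -0.06. In group A 23 of 41 members were higher in IUHS calves at birth with a median of 0.01, and 35 of 41 at weaning with a median of 0.10. Without IUHS calf 4 at birth 3 of 41 were higher at birth, with a median of -0.10. In group C 5 of 9 were higher at birth and 4 of 9 at weaning, and without IUHS calf 5 at birth 0 of 9 were higher at birth, with a median of -0.25. Over all members 36 of 96 were higher in IUHS calves at birth and 66 of 96 at weaning, with medians of -0.04 and 0.06. Of the 15693 IDs tested, 8060 were higher at birth and 8027 at weaning, with medians of 0.0053 and 0.0066. The medians over members too moved with single libraries. At birth the median over members was -0.11 without IUHS calf 4 and 0.004 without IUHS calf 2, and at weaning it was 0.0025 without IUHS calf 28, with 48 of 96 higher, and 0.097 without IUCL calf 17.

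The 4 members with the highest mean CPM gave 6 pairs, fixed by abundance. Their deviations from group means were compared by Pearson's r and Spearman's rho with 100000 permutations of calves within groups, two-sided, and adjusted over the 6 pairs. Shares of 1 total are not independent of each other. ENSBTAG00000053735 and ENSBTAG00000054126 had r = 0.61 (permutation p = 0.00711, adjusted 0.0427, n = 24) and rho = 0.51 (permutation p = 0.0208, adjusted 0.0939). The r was 0.50 without the 2 libraries farthest from the median, 0.79 at birth and 0.32 at weaning. ENSBTAG00000053735 and ENSBTAG00000006769 had r = 0.46 (permutation p = 0.0143, adjusted 0.043) and rho = 0.44 (permutation p = 0.0364, adjusted 0.0939), with r of 0.50 without the 2 farthest libraries, 0.30 at birth and 0.62 at weaning. Both pairs passed by r and missed the threshold by rho.

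ENSBTAG00000009836 was negatively related to the other 3, but none of these pairs passed after adjustment. With ENSBTAG00000006769 r was -0.46 (permutation p = 0.0264, adjusted 0.0529) and rho -0.29 (permutation p = 0.188, adjusted 0.27), and r without the 2 farthest libraries was -0.29. With ENSBTAG00000053735 r was -0.42 (permutation p = 0.0614, adjusted 0.0921) and rho -0.44 (permutation p = 0.0469, adjusted 0.0939), with r of -0.55 without the 2 farthest libraries, -0.14 at birth and -0.72 at weaning. With ENSBTAG00000054126 r was -0.34 (permutation p = 0.145, adjusted 0.175) and rho -0.27 (permutation p = 0.225, adjusted 0.27). The remaining pair, ENSBTAG00000054126 and ENSBTAG00000006769, had r = 0.18 (permutation p = 0.307, adjusted 0.307).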

How the data were processed

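Adrenal RNA of 24 calves was sequenced by a commercial centre after TRIzol extraction, per the labels' protocols. What the authors deposited were raw read counts per Ensembl ID. Per the submitters' processing notes, FastQC 0.11.7, Trim Galore 0.4.4, HISAT2, HTSeq and the build ARS-UCD1.2 were used. Strand setting, annotation release and the other versions are not given in the sources used here, so reads of overlapping, antisense or near-identical genes may be split or pooled between IDs. Groups and calf numbers came from the labels, and 0 columns of other samples were present. The edgeR p-values set a difference between group means against the spread between these calves, estimated with information from all IDs tested. The permutation p-values apply to correlations across these calves.

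The members and lists were chosen with earlier results of these data known. Gene lists and cell type markers need names and were not run, because the reference table of 37063 genes held an Ensembl ID for 0 of them.

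Tests used edgeR 4.0.16 in R 4.3.3: filterByExpr (minimum count 10, minimum total 15), TMM, 1 robust quasi-likelihood fit of 4 group means, and Benjamini-Hochberg adjustment over 15693 IDs at 0.05. Log2 CPM used a prior count of 2. Members were clustered by average linkage on 1 minus r. DESeq2 1.42.0, limma 3.58.1 (voom), RLE factors, total counts, no filter, other list lengths and left-out libraries were alternatives. The fit and descriptions were tested on simulated data. Python 3.11.15, numpy 2.4.6, pandas 2.3.3, scipy 1.17.1 and matplotlib 3.10.9 were used. Named were the first 10 members by mean CPM, the 3 with the largest and the 3 with the smallest SD, the smallest p per direction and treatment comparison, and IDs at the limits of the rule. ENSBTAG00000003505, ENSBTAG00000012586, the closest pairs and the IDs of groups A to C were chosen after their values were seen.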

Additional observations from a re-analysis of the deposited data

Results flagged for a closer look

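Within groups of 6 calves, 108 sets of 6 values of the named members, the members' share of counts and the component scores were examined by Dixon's test, and in 9 sets 1 calf stood apart from the other 5. Chance gives about 1 in 20, or 5.4 of 108, for IDs chosen without regard to their spread. The named members include the 3 with the largest SD (ENSBTAG00000012314, ENSBTAG00000011839 and ENSBTAG00000021588) and those with the smallest p, for which that rate does not hold.

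In the IUCL birth group, calf 3 had 3519 CPM of ENSBTAG00000012314, with the other 5 between 226 and 902 CPM, and 4719 CPM of ENSBTAG00000011839, with the others between 387 and 1971 CPM. In the IUHS birth group, calf 5 had 3432 CPM of ENSBTAG00000006934, with the others between 5694 and 6295 CPM, and a score of 8.77 on the members' second component, with the others between -4.84 and 0.06.

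In the IUCL weaning group 4 different calves stood apart. Calf 17 gave 20.3% of its counts to the members, with the others between 17.8% and 18.7%. Calf 22 had 4092 CPM of ENSBTAG00000033345, with the others between 6948 and 8633 CPM. Calf 13 had 2695 CPM of ENSBTAG00000004258, with the others between 2263 and 2395 CPM. Calf 19 had 923 CPM of ENSBTAG00000021588, with the others between 345 and 544 CPM. In the IUHS weaning group calf 18 had 2513 CPM of ENSBTAG00000013066, with the others between 1448 and 1779 CPM.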

How the results depend on the processing

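A list of the top 50 IDs gave 49 members and of the top 200 gave 194. Ranking by the median gave 98 members (93 shared) and TMM-scaled CPM 98 (95 shared). Leaving out each library gave 91 to 97 members, with 91 without IUHS calf 5 at birth. The same gave a mean share of counts of 18.5% to 18.7%, a median SD of 0.27 to 0.29 and 41.9% to 46.0% of variance on the first component, and 0 to 0 members called in each of the 4 treatment comparisons. The count of called members was also 0 with DESeq2, limma-voom, RLE factors, total counts and no filter on low counts. Without both IUCL calf 3 at birth and IUHS calf 28 at weaning it was 0 as well. The smallest adjusted p of any member in any of these fits was 0.540. The share was 17.6% over counts without the first ID. On total counts the median SD was 0.24, the first component held 33.9% and age held a median of 12.4%.

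Calf numbers 1, 2, 5 and 7 occur in both treatments at birth. Same-numbered calves had r of -0.12, -0.11, 0.17 and 0.29 between their deviations from group means over 15693 IDs. Not every pair was above 0.1 and the labels tie no number to a shared litter, batch or day, so the numbers were not taken as pairs. From the data only, 4 of these 8 libraries correlated best with their own number. Each had only 4 libraries of the other treatment to match, so some matches arise by chance, and this was not tested. The fit with the replicate block called 0 members, with 0 called in the same 8 libraries unpaired. In those 8 libraries, a setting added after seeing the data and without IUCL calf 3, the log2 difference of ENSBTAG00000012314 at birth was 0.022 in place of -1.13, and with the replicate block it was -0.16. The other 7 log2 differences of the members with the smallest p kept their sign under every alternative run. ENSBTAG00000014835 is among them both at birth and averaged over ages. These members were picked for their direction, and the alternatives reuse most of the same libraries. A kept sign is therefore no support for a difference. Settings that left out the libraries that stood apart, and the groups formed in one age or treatment, were also added after seeing the data. Counting error, with a median coefficient of variation of 0.798% over members, was small beside the 17.1% between calves.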
